A study of Mus musculus with 12 samples.

Results

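Cholesterol synthesis and sterol sensing were followed through 28 genes in mouse brown adipose tissue (BAT): the enzymes from acetyl-CoA to cholesterol, the SREBP and Insig sensing system, 2 genes of LDL receptor turnover and sterol transfer, and 2 sterol exporters. The genes were chosen by name, with earlier results of these data known, from the 24197 rows of the count table, and all 28 were found. Of these, 27 passed the filter on low counts and were tested among 15265 genes. RNA sequencing covered 12 libraries in 4 groups of 3, all from mice of 8-10 weeks that carried Ebf2 fl/fl alleles. Mutants carried Adipoq-Cre (Adipoq-Cre+; Ebf2 fl/fl) and were kept in the cold (4C) for 1 week or at room temperature (RT), and controls without Cre (Adipoq-Cre-; Ebf2 fl/fl) were kept in the same 2 conditions. Adipoq-Cre deletes floxed alleles in adipocytes, so the other cells of the tissue keep the gene. The series asks how Ebf2, a transcription factor of brown adipocytes, bears on the tissue's gene expression in both conditions.

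Cells make cholesterol from acetyl-CoA through mevalonate, isoprenoid units, squalene and lanosterol. When sterols in the endoplasmic reticulum fall, Scap escorts the precursors of the SREBP transcription factors to the Golgi, where the proteases encoded by Mbtps1 and Mbtps2 release the active form that switches on the enzyme genes. Insig proteins hold Scap back when sterols are plentiful, and Insig1 is itself an SREBP target. Excess sterol is turned into oxysterols, which activate LXR, the nuclear receptor that drives the exporters Abca1 and Abcg1, the LDL receptor ligase Mylip and Srebf1.

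The libraries held 25835650 to 37927038 counts. Levels are given in counts per 1000000 (CPM), scaled to library sizes adjusted by TMM, edgeR's between-library normalisation. Ebf2 had 28.7, 21.6 and 27.0 CPM in the libraries labelled mutant and 52.3, 42.2 and 41.6 CPM in control libraries in the cold (-0.82 ± 0.25 on the log2 scale, SE, adjusted p = 0.153). At RT it had 65.2, 45.7 and 38.3 CPM in the libraries labelled mutant and 47.4, 64.1 and 32.0 CPM in controls, or 0.06 ± 0.25 on the log2 scale (adjusted p = 0.931). The targeted gene was therefore not lower at RT in the counts used here, which part of it the floxed exons span is not given in the sources used here, and the groups are called mutant-labelled below. Summed CPM of 10 brown adipocyte markers, all detected, was 19200 to 32080 in mutant-labelled and 28050 to 29410 in control libraries in the cold, and 17600 to 24510 in mutant-labelled and 18590 to 19320 in control libraries at RT. At RT 4 of these markers, Adrb3, Elovl3, Lipe and Plin1, were higher in mutant-labelled libraries and Ucp1, the uncoupling protein of heat production, was lower (-1.77 ± 0.39, SE, adjusted p = 0.0199), while in the cold none was called between genotypes. Summed CPM of 16 skeletal muscle markers was 187, 395 and 6203 in mutant-labelled and 2483, 190 and 10210 in control libraries in the cold, and 1187, 30.56 and 20500 in mutant-labelled and 26030, 20.02 and 18090 in control libraries at RT. In mutant-labelled RT library 2 the muscle markers Ckm, Myh1, Myh2, Myh4, Myh7 and Pvalb were at 0. Lens markers, 11 in all, summed to 1.01 to 2.79 CPM in mutant-labelled RT libraries and 146 to 666 CPM in control RT libraries, with 102 to 190 CPM in the cold libraries of both genotypes. Of these, 10 were lower in mutant-labelled RT libraries, where Cryba2 and Mip were at 0. What set that group apart in lens transcripts cannot be told apart from genotype at RT and was not tested. The same group enters the cold response of mutant-labelled libraries and the interaction. The 10 fibroblast and preadipocyte markers summed to 5200 to 6175 CPM in mutant-labelled and 2390 to 3647 CPM in control RT libraries, and 2 were called higher. Much of that difference lay in Gsn, with 3590, 3510 and 4140 CPM in mutant-labelled and 1500, 1110 and 1260 CPM in control RT libraries. The median log2 fold change of the 10 markers was 0.08, against -0.04 over all genes tested. The part of these other cell types in the results below was not tested, except where values without the 4 libraries richest in muscle transcripts (mutant-labelled RT 3, control RT 1 and 3, control cold 3) are given. In whole tissue, fewer cells of a type and less RNA per cell cannot be told apart.

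The proximal promoters of these genes are shown because SREBP acts through a sterol regulatory element that usually lies near a CCAAT box, the site of the cofactor NF-Y. RefSeq (GRCm38.p6) gave promoters for 23 of the 28 genes, 31 start sites in all, and the 250 bases upstream of each were scanned on both strands. Fdps, Fdft1, Sqle, Stard4 and Abcg1 had no entry. The 9-base element TCACNCCAC (GTGGNGTGA on the other strand) was found in 1 of 31 member promoters (3.23%), against 1.05% of all 32851 promoters in the table, and the match was in Hmgcs1. The 8-base forms CACNCCAC and TCACNCCA, which overlap it and were added after the first scan, were found in 3 of 31 (9.68%, against 5.29% of all) and 2 of 31 (6.45%, against 3.67% of all). The matches in Hmgcs1, Insig1 and Srebf2 and the farther of 2 in Acat2 are shown with the element in capitals, each strand as transcribed, at chr13:119690194-119690242 (+), chr5:28071383-28071411 (+), chr15:82147087-82147134 (+) and chr17:12960879-12960926 (-). The other Acat2 match begins at -53 from the start and is not shown.
Hmgcs1: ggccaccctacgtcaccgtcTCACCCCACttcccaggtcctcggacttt
Insig1: ggcgcggtacgtgtagtgtcGTGGCGTGt
Srebf2: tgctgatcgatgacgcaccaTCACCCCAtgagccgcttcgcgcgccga
Acat2: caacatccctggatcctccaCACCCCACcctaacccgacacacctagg

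The CCAAT box (ATTGG on the other strand) was found in 19 of 31 member promoters (61.3%), against 33.8% of all promoters in the table, and in 18 of the 23 genes (78.3%), against 37.5% of all genes. A set of 4 of these promoters is shown over the last 100 bases before the start site, with the box in capitals: Nsdhl at chrX:72918421-72918520 (+), Idi1 at chr13:8885506-8885605 (+), Lss at chr10:76531505-76531604 (+) and Cyp51 at chr5:4104698-4104797 (-). Idi1 holds 2 boxes in this stretch and the other 3 hold 1 each. A match describes these letters and is no evidence of binding in brown fat.
Nsdhl: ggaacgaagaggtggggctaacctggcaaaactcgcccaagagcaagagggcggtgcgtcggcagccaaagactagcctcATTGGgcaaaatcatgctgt
Idi1: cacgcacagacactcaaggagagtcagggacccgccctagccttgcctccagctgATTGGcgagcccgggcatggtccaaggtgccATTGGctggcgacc
Lss: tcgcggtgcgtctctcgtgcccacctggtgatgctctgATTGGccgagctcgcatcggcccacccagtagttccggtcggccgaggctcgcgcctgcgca
Cyp51: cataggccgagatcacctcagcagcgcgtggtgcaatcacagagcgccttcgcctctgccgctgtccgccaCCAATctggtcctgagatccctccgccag

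**Figure D1:**
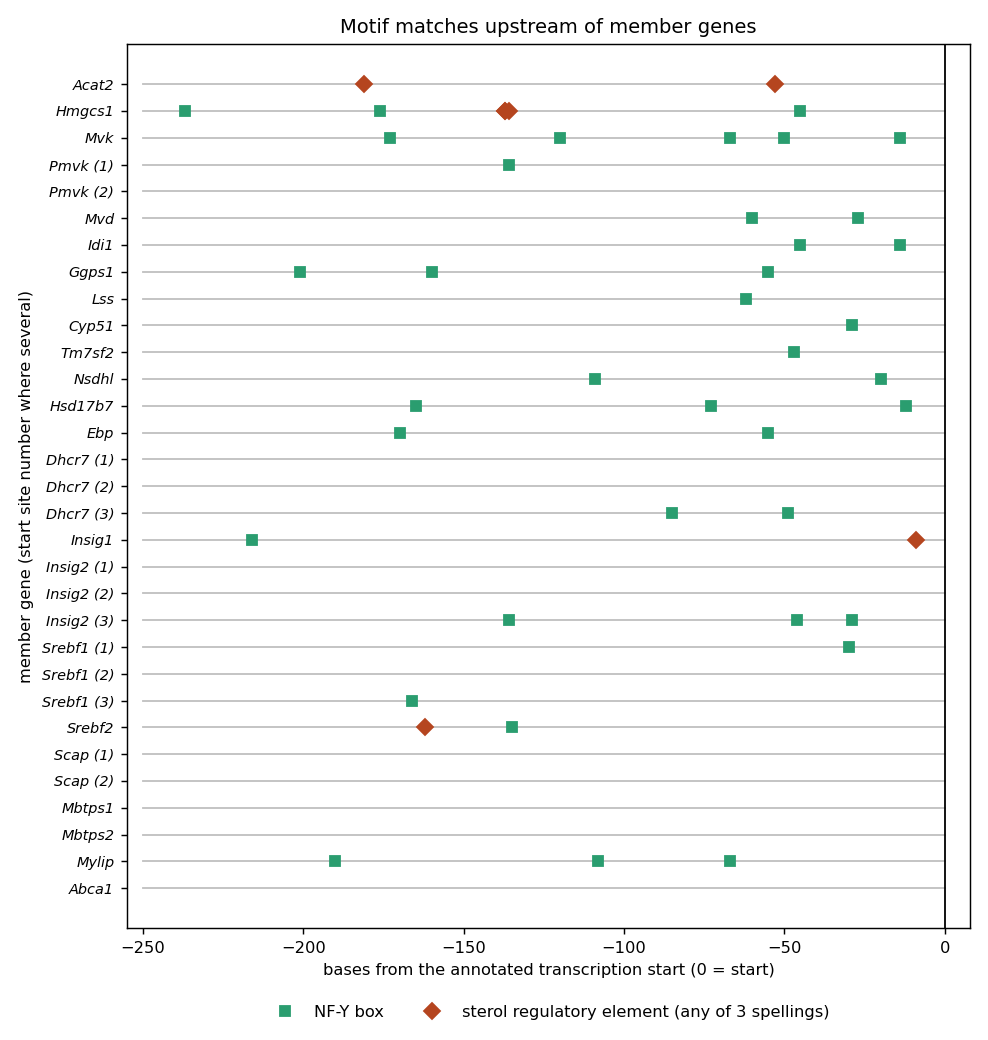
Each line is the 250 bases upstream of 1 annotated start site of a member gene (x axis in bases from the start, 31 start sites of 23 genes). Squares mark CCAAT boxes, present in 19 of the 31, and diamonds mark any of the 3 spellings of the sterol regulatory element, found in Hmgcs1, Insig1, Srebf2 and Acat2.

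The first comparison asked how mutant-labelled and control BAT differed at RT. Of the 27 members tested, 10 were higher in mutant-labelled libraries, none was lower and 17 were not called (edgeR quasi-likelihood test, Benjamini-Hochberg adjusted p below 0.05 over all genes). Over all genes tested, 3.92% were called higher and 2.32% lower. The 10 were 8 enzymes, spread from mevalonate to the late sterol steps, and Insig1 and Srebf1 of the sensing system. The median log2 fold change was 0.39 over the members and -0.04 over all genes tested. In 15 members every mutant-labelled library lay above every control library, a pattern that 12.9% of all genes showed, and in 1 member, Mylip, every one lay below, as in 11.9% of all genes.

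Among the mevalonate enzymes, Pmvk, which phosphorylates mevalonate 5-phosphate, had 116, 151 and 105 CPM in mutant-labelled libraries and 49.3, 51.6 and 51.8 CPM in controls. The 3 controls were nearly level and the lowest mutant-labelled library was about 2-fold above them, so that the difference on the log2 scale was 1.28 ± 0.21 (SE, adjusted p = 0.00422). Idi1, which interconverts the 5-carbon isoprenoid units, had 15.1, 20.6 and 18.5 CPM in mutant-labelled libraries and 9.90, 10.3 and 7.68 CPM in controls (0.96 ± 0.17, adjusted p = 0.00588). Other enzymes around these did not pass the test: Mvk, the mevalonate kinase, had 28.1, 31.9 and 25.2 CPM against 23.1, 21.6 and 18.1 CPM in controls (adjusted p = 0.11). Mvd, the decarboxylase that follows Pmvk, had 9.82 ± 1.50 CPM in mutant-labelled libraries and 7.05 ± 1.58 CPM in controls (SD, n = 3 each; adjusted p = 0.158). Acat2, the cytosolic thiolase that opens the pathway, had 214 ± 12.1 CPM and 181 ± 13.5 CPM in the same order (adjusted p = 0.381).

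At the isoprenoid branch point the synthases differed in call. Fdps, which makes farnesyl diphosphate, had 61.4, 74.99 and 63.5 CPM in mutant-labelled libraries, all above the 33.6, 37.6 and 23.9 CPM of controls (1.07 ± 0.23, adjusted p = 0.016). Without mutant-labelled RT library 2 or control RT library 3 its adjusted p was 0.0759 and 0.0798. Ggps1, which makes geranylgeranyl diphosphate for protein prenylation, had 20.9, 23.9 and 22.6 CPM in mutant-labelled libraries and 18.2, 22.8 and 19.4 CPM in controls, and the groups overlapped (adjusted p = 0.553).

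From squalene to sterol, 5 of 9 enzymes were higher. Nsdhl, the 3-beta-hydroxysteroid dehydrogenase of C4 demethylation, had 69.6, 91.9 and 72.4 CPM in mutant-labelled libraries and 24.2, 25.3 and 19.7 CPM in controls, which was 3.38-fold (1.76 ± 0.20 on the log2 scale, adjusted p = 0.00114). Its lowest mutant-labelled library was above its highest control by more than the whole range within either group. Sqle, the squalene epoxidase, had 21.8, 20.9 and 17.2 CPM in mutant-labelled libraries and 10.6, 11.4 and 8.04 CPM in controls (1.00 ± 0.19, adjusted p = 0.00856). Lss, which closes the rings to lanosterol, had 59.9, 74.3 and 60.8 CPM in mutant-labelled libraries and 30.3, 38.9 and 25.5 CPM in controls (1.04 ± 0.17, adjusted p = 0.00498). Neither gene's groups overlapped. Cyp51, the lanosterol 14-alpha-demethylase, had 40.2, 46.2 and 40.2 CPM in mutant-labelled libraries and 18.2, 27.2 and 21.4 CPM in controls (0.92 ± 0.17, adjusted p = 0.00833). Tm7sf2, a sterol delta-14 reductase, had 14.1, 21.1 and 16.98 CPM in mutant-labelled libraries and 10.9, 7.41 and 9.54 CPM in controls (0.91 ± 0.20, adjusted p = 0.0182). Its call was lost in 5 of 21 alternative settings, among them without mutant-labelled RT library 2 (adjusted p 0.0823), control RT library 2 (0.063) or control RT library 3 (0.0706), and in the fit of the RT groups alone (0.0602). The other 4 enzymes were not called: Fdft1, the squalene synthase (0.37, adjusted p = 0.284), Hsd17b7, the 3-ketosteroid reductase (0.26, adjusted p = 0.503), Ebp, the sterol isomerase (0.12, adjusted p = 0.773), and Dhcr7, the last reductase before cholesterol (0.36, adjusted p = 0.249). Summed over the 16 enzymes with counts, synthesis transcripts came to 852.9, 1021 and 852 CPM in mutant-labelled libraries and 587, 604.8 and 543.8 CPM in controls.

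In the sensing system, Insig1 had 579, 730.1 and 712 CPM in mutant-labelled libraries and 234, 200.4 and 193 CPM in controls at RT. Every mutant-labelled library held more than 2-fold the highest control, and the log2 fold change was 1.69 ± 0.16 (3.22-fold, adjusted p = 0.000339). Insig2, which shares Insig1's retention role but is not driven by SREBP in the same way, had 46.04, 45.2 and 47.6 CPM in mutant-labelled libraries and 40.1, 29.5 and 36.3 CPM in controls. Those groups did not overlap either, but the difference missed the threshold (0.39 ± 0.12, adjusted p = 0.0825). Srebf1, which encodes SREBP-1 and is a target of LXR and of SREBP itself, had 417, 451 and 491 CPM in mutant-labelled libraries and 254, 231 and 189 CPM in controls (1.01 ± 0.19, adjusted p = 0.00899, and 0.0532 without control RT library 3). Srebf2, which encodes the SREBP that chiefly drives cholesterol genes, had 49.5, 54.1 and 55.3 CPM against 39.3, 56.2 and 41.9 CPM in controls, with overlapping groups (adjusted p = 0.514). Scap had 52.3, 71.2 and 66.96 CPM against 55.4, 85.1 and 61.2 CPM in controls (adjusted p = 0.875). Mbtps1 and Mbtps2, the proteases that release SREBP, were not called either (log2 fold changes 0.03 and 0.30, adjusted p = 0.93 and 0.421).

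The outflow genes did not pass the test at RT. Abcg1, an exporter of sterol to lipoproteins, had 20.6, 35.6 and 35.2 CPM in mutant-labelled libraries and 11.5, 21.5 and 12.3 CPM in controls (1.01 ± 0.31, adjusted p = 0.0863), and mutant-labelled library 1 lay within the control range. Abca1, the exporter to lipid-poor apolipoproteins, had 123, 145 and 177 CPM against 106, 126 and 133 CPM in controls (adjusted p = 0.398). Mylip, the ubiquitin ligase that marks the LDL receptor for degradation, had 32.3, 36.97 and 34.6 CPM in mutant-labelled libraries and 38.9, 45.8 and 48.7 CPM in controls, without overlap but short of the threshold (-0.36 ± 0.20, adjusted p = 0.354). Stard4, a cytosolic sterol carrier, had 3.72, 5.69 and 6.14 CPM and 3.78, 4.72 and 3.75 CPM in the same order (adjusted p = 0.483).

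All 8 members called higher at RT that had a promoter entry held a CCAAT box upstream of at least 1 start site. So did 9 of the 14 other tested members with an entry. The 5 without one were Acat2, Scap, Mbtps1, Mbtps2 and Abca1. For the cold response of controls, given below, the box was in 9 of the 10 members called higher with an entry and in 8 of the 12 others. Of the 10 calls, none remained without the 4 muscle-rich libraries, a fit that leaves 1 control library at RT, while the members' median was 0.39 there too and Insig1 and Nsdhl had log2 fold changes of 1.71 and 1.68 (adjusted p = 0.0522 and 0.1). The count strand setting is not stated, and Lss overlaps 4930483K19Rik on the other strand, so reads of the overlap cannot be told apart. That gene was also higher (1.20 ± 0.21, SE, adjusted p = 0.0058). It averaged 7.23 CPM in mutant-labelled and 3.15 CPM in control RT libraries, where Lss averaged 65.0 and 31.5 CPM. The part of its reads in the Lss difference was not tested.

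**Figure D2:**
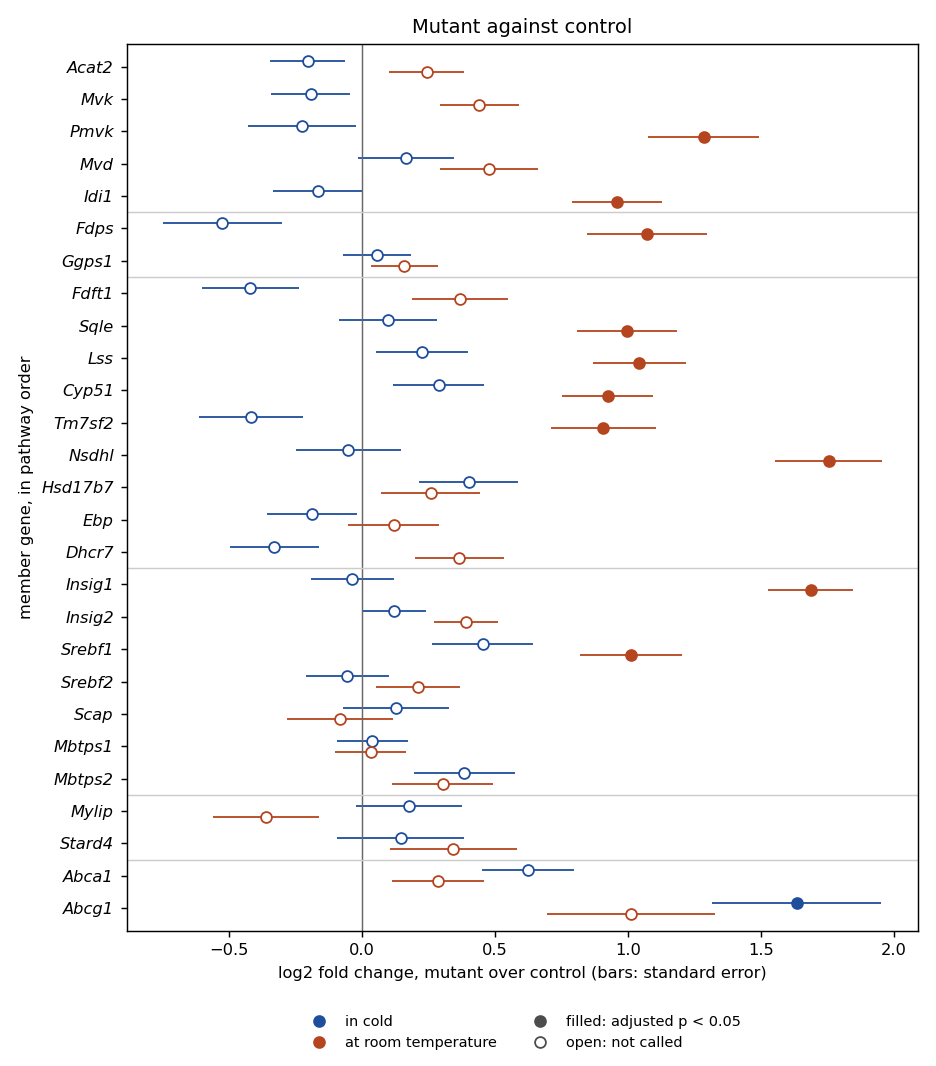
Log2 fold change of each tested member, mutant-labelled over control, in the cold (blue) and at RT (red), with standard errors as bars and filled points for adjusted p below 0.05. At RT 10 members are filled and all lie right of 0, and in the cold Abcg1 alone is filled.

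In the second comparison, mutant-labelled and control BAT after the week of cold, 1 of the 27 members was higher, none was lower and 26 were not called. Over all genes tested, 0.727% were called higher and 0.393% lower. At an unadjusted p below 0.05 the members numbered 5 of 27, in either direction, as did 15.3% of all genes. The members' median log2 fold change was 0.06, against -0.01 over all genes. Groups did not overlap in 3 members that were higher in mutant-labelled libraries, as in 12.9% of all genes, and in 4 that were lower, as in 12%.

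Abcg1 was the gene called. It had 55.5, 36.8 and 69.7 CPM in mutant-labelled libraries and 13.2, 21.3 and 17.6 CPM in controls, a 3.11-fold difference (1.63 ± 0.32 on the log2 scale, adjusted p = 0.0374). All 3 mutant-labelled libraries were above all controls, and the spread was wide, with library 3 at almost 2-fold library 2. The call was lost in 9 of 21 alternative settings, including without any one control cold library (adjusted p 0.145, 0.0947 and 0.165), without mutant-labelled cold library 1 (0.113) or 3 (0.108), without mutant-labelled RT library 2 (0.0524) or control RT library 3 (0.0504), and in the fit of the cold groups alone (0.0515). Mutant-labelled cold library 3 also held 253.6 CPM of 6 epithelial markers, against 2.65 to 24.4 CPM in the 11 other libraries, and the part of those cells was not tested beyond the value without it (1.41 on the log2 scale). Abca1 had 164, 113 and 149 CPM in mutant-labelled libraries and 103, 86.1 and 87.8 CPM in controls, again without overlap, and did not pass the test (0.62 ± 0.17, adjusted p = 0.119). Srebf1 was the third gene without overlap, with 456, 454 and 434 CPM in mutant-labelled libraries and 229.8, 366 and 384 CPM in controls (0.45 ± 0.19, adjusted p = 0.281). The 13 macrophage markers, a cell type known for LXR-driven Abca1 and Abcg1, summed to 158.7 to 203.4 CPM in mutant-labelled and 188.8 to 511 CPM in control cold libraries, and none of the 13 was called.

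The genes with the widest RT differences did not pass the test in the cold. Insig1 had 444, 409.5 and 389 CPM in mutant-labelled libraries and 365, 491 and 418 CPM in controls (-0.04 ± 0.16, adjusted p = 0.937). Nsdhl had 74.98, 91.03 and 50.1 CPM in mutant-labelled libraries and 68.5, 77.8 and 77.6 CPM in controls (-0.05 ± 0.20, adjusted p = 0.927). In both genes the groups overlapped. Fdps had 85.1, 113 and 59.3 CPM in mutant-labelled libraries and 131, 105 and 134 CPM in controls (-0.53 ± 0.22, adjusted p = 0.288). Mvk, Fdft1, Tm7sf2 and Ebp were the 4 members whose mutant-labelled libraries all lay below the controls, with log2 fold changes of -0.19, -0.42, -0.42 and -0.19 and adjusted p between 0.295 and 0.634. The 16 enzymes summed to 807.3, 1005 and 740.9 CPM in mutant-labelled cold libraries and 913, 934.5 and 1008 CPM in control cold libraries.

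**Figure D3:**
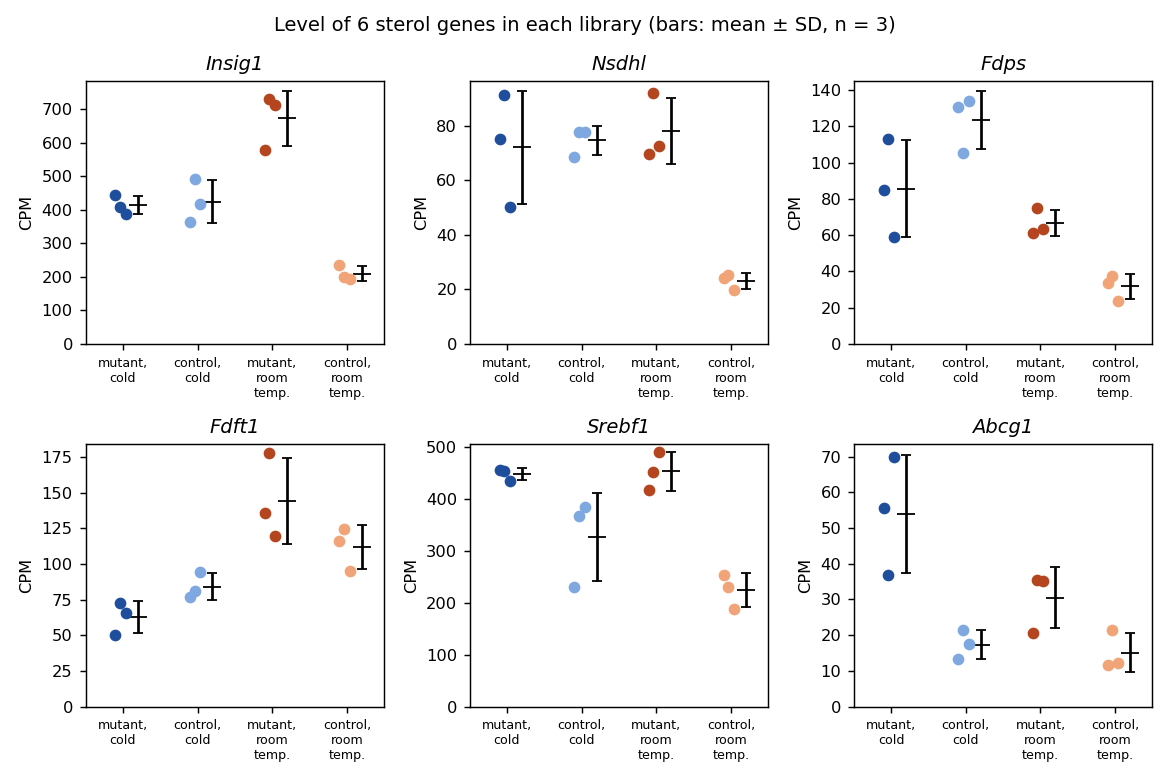
CPM of 6 members in each library, with the groups from left to right mutant-labelled cold, control cold, mutant-labelled RT and control RT, and bars for the mean and SD of 3 libraries. Insig1 and Nsdhl are lowest in the control RT libraries, Fdft1 is lower in the cold groups, and Abcg1 is highest in the mutant-labelled cold group.

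The third comparison gave the cold response of control BAT. In the cold, 12 of the 27 members rose, none fell and 15 were not called, while over all genes tested 4.31% were called higher and 2.31% lower in the cold. The 12 were 11 enzymes and Insig1. The members' median log2 fold change was 0.52, against -0.01 over all genes. In 13 members all cold libraries lay above all RT libraries, as in 18.9% of all genes, and in 3 members, Ggps1, Fdft1 and Abca1, all lay below, as in 14.4%. Markers of other cells moved with the cold: 10 endothelial markers summed to 1297 to 1396 CPM in cold and 811 to 1095 CPM in RT control libraries, and to 1353 to 1387 CPM in cold and 835 to 1069 CPM in RT mutant-labelled libraries. Of the 10, 3 were called higher in the cold in controls and 4 in mutant-labelled libraries, none was called lower, and all were detected in every library. Of the brown adipocyte markers, Adrb3, Elovl3 and Ucp1 rose and Adipoq fell in the cold in controls, while Elovl3 and Ucp1 rose and Adipoq, Lipe and Plin1 fell in mutant-labelled libraries. The part of either in the cold responses was not tested.

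The widest rise was that of Fdps, with 131, 105 and 134 CPM in the cold and 31.7 ± 7.05 CPM at RT (SD, n = 3), a 3.89-fold difference (1.96 ± 0.23 on the log2 scale, adjusted p = 0.00143). Among the mevalonate enzymes, Mvd had 14.5, 15.8 and 14.3 CPM in the cold against 8.86, 6.36 and 5.94 CPM at RT (1.07 ± 0.18, adjusted p = 0.0069). Pmvk had 111, 99.6 and 108 CPM in the cold against 50.9 ± 1.38 CPM at RT (1.06 ± 0.21, adjusted p = 0.0125). None of these 3 enzymes overlapped between the conditions. The call of Pmvk was lost without control RT library 3 (adjusted p 0.0501), control cold library 1 (0.0514) or control cold library 3 (0.0568). Idi1 had 18.5, 17.8 and 18.4 CPM in the cold against 9.30 ± 1.42 CPM at RT (0.97 ± 0.17, adjusted p = 0.00746). Acat2, for which reads may be shared with its close copy Acat3, had 241, 268 and 270.3 CPM in the cold against 189, 165 and 188 CPM at RT (0.52 ± 0.14, adjusted p = 0.0482). That was the smallest of the 12 rises, and its call was lost in 14 of 21 settings, including the fit with the replicate number as a block (adjusted p 0.0663) and those without any one control library (0.0688 to 0.185), any one mutant-labelled RT library (0.0612 to 0.0881) or mutant-labelled cold library 1 (0.0874).

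From squalene to sterol 6 of 9 enzymes rose, and Fdft1, Hsd17b7 and Ebp were not called. Sqle had 26.8, 28.2 and 35.4 CPM in the cold against 10.01 ± 1.74 CPM at RT (1.59 ± 0.19, adjusted p = 0.00143), and Nsdhl had 68.5, 77.8 and 77.6 CPM against 23.1 ± 2.98 CPM (1.69 ± 0.20, adjusted p = 0.00143). Both were about 3-fold higher in the cold. Cyp51 had 48.4, 56.7 and 49.3 CPM in the cold against 22.2 ± 4.57 CPM at RT (1.21 ± 0.17, adjusted p = 0.0029). Lss had 56.98, 59.2 and 73.3 CPM in the cold against 31.5 ± 6.79 CPM at RT (1.00 ± 0.17, adjusted p = 0.00753), and 4930483K19Rik, which overlaps it on the other strand, rose too (1.05 ± 0.21, adjusted p = 0.0141). Dhcr7 had 32.5, 32.1 and 38.5 CPM in the cold against 16.8, 19.6 and 15.4 CPM at RT (0.99 ± 0.17, adjusted p = 0.00648). Tm7sf2 had 16.4, 16.8 and 19.02 CPM in the cold against 9.27 ± 1.74 CPM at RT (0.91 ± 0.20, adjusted p = 0.021). Vps51, whose gene overlaps Tm7sf2 on the same strand, also rose (0.60 ± 0.13, adjusted p = 0.0222), and the Tm7sf2 call was lost without any one of control cold libraries 1 to 3 (adjusted p 0.0506, 0.0669 and 0.0871) and without control RT library 2 (0.0637) or 3 (0.0658). Fdft1, which commits farnesyl diphosphate to sterols, had 76.9, 81.01 and 94.7 CPM in the cold and 116, 125 and 95.02 CPM at RT, without overlap and without a call (-0.41 ± 0.18, adjusted p = 0.196). Hsd17b7 had 9.71, 12.1 and 11.4 CPM against 7.40, 7.45 and 6.79 CPM and was not called (0.62 ± 0.19, adjusted p = 0.0715).

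In the sensing system Insig1 rose, with 365, 491 and 418 CPM in the cold against 209 ± 21.99 CPM at RT (1.02 ± 0.16, adjusted p = 0.00399). Srebf1 had 229.8, 366 and 384 CPM in the cold and 225 ± 33.3 CPM at RT, and cold library 1 lay inside the RT range (0.54 ± 0.19, adjusted p = 0.109, and 0.0405 without control cold library 1). Srebf2 had 47.1, 66.7 and 60.6 CPM in the cold and 45.8 ± 9.12 CPM at RT (adjusted p = 0.206). Insig2, Scap, Mbtps1 and Mbtps2 had log2 fold changes between -0.14 and 0.16, none called. Abca1 had 103, 86.1 and 87.8 CPM in the cold, all below the RT libraries, and was not called (-0.40 ± 0.17, adjusted p = 0.187), and Abcg1 had 13.2, 21.3 and 17.6 CPM (adjusted p = 0.732). Without the 4 muscle-rich libraries no member was called in this comparison, where the members' median was 0.40 and Fdps had a log2 fold change of 1.65 (adjusted p = 0.135).

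**Figure D4:**
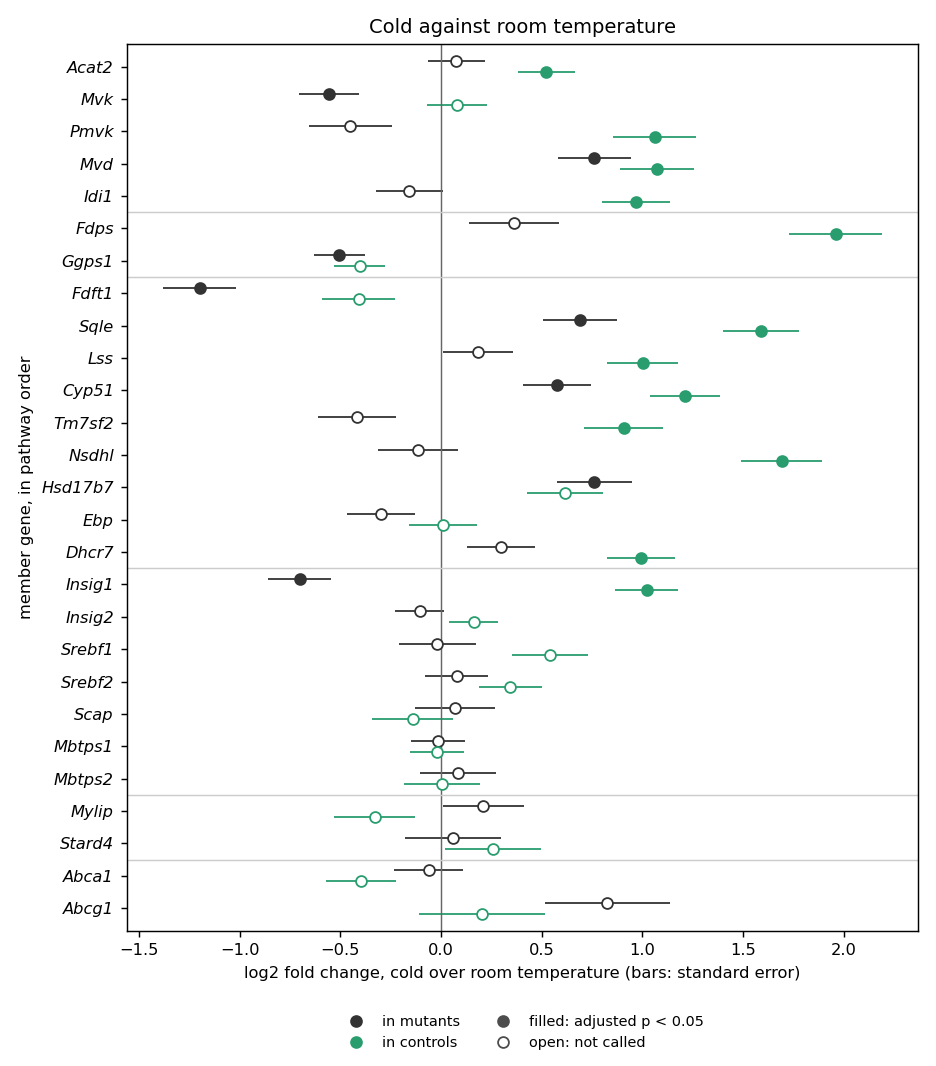
Log2 fold change of each tested member, cold over RT, in mutant-labelled libraries (black) and controls (green), with standard errors as bars and filled points for adjusted p below 0.05. The 12 filled control points lie right of 0, and 8 mutant-labelled points are filled, 4 on each side.

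The fourth comparison gave the cold response of mutant-labelled BAT. In the cold, 4 members rose, 4 fell and 19 were not called, and over all genes tested 10.0% were called higher and 7.42% lower. The members' median was 0.06, against -0.01 over all genes. In 5 members all cold libraries lay above all RT libraries, as in 16.7% of all genes, and in 5 all lay below, as in 16.0%.

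The 4 that rose were enzymes. Mvd had 17.4, 18.2 and 14.3 CPM in the cold and 9.90, 8.29 and 11.3 CPM at RT (0.76 ± 0.18, adjusted p = 0.0138). Sqle had 29.3, 39.7 and 27.7 CPM in the cold and 21.8, 20.9 and 17.2 CPM at RT (0.69 ± 0.19, adjusted p = 0.0242). Cyp51 had 51.2, 61.8 and 75.6 CPM in the cold and 40.2, 46.2 and 40.2 CPM at RT (0.58 ± 0.17, adjusted p = 0.0375). In each, the lowest cold library was above the highest RT library. Hsd17b7 had 17.5, 16.0 and 10.4 CPM in the cold and 8.58, 8.65 and 8.65 CPM at RT (0.76 ± 0.19, adjusted p = 0.0158), with the 3 RT libraries nearly level. Calls of these 4 were lost in 3 to 11 of 21 settings, and none of them kept its call without mutant-labelled cold library 2 (adjusted p 0.0636 to 0.118) or mutant-labelled RT library 2 (0.0642 to 0.0755). Sqle was also lost without mutant-labelled RT library 3 (0.106) or cold library 1 (0.0533), Hsd17b7 without the same libraries (0.0592 and 0.0977), and Mvd without mutant-labelled cold library 1 (0.0623). Cyp51 was lost without mutant-labelled cold library 3 (0.0907) or RT library 1 or 3 (0.0997 and 0.123), and without control RT library 3 (0.0541) or any one control cold library (0.0524 to 0.0608).

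The 4 that fell were 3 enzymes and Insig1. Fdft1 fell to 50.4, 72.9 and 65.5 CPM in the cold, against 136, 178 and 119.5 CPM at RT, a log2 fold change of -1.20 ± 0.18 (adjusted p = 0.00116). It was the member whose call held in all 21 settings of this comparison (adjusted p 4.96e-08 to 0.0134). Ctsb, a cathepsin gene that overlaps Fdft1 on the other strand and has 1825 ± 106 CPM in the cold and 2712 ± 363 CPM at RT, also fell (-0.57 ± 0.17, adjusted p = 0.0398), and at RT Ctsb was higher in mutant-labelled libraries (0.83 ± 0.17, adjusted p = 0.015). Mvk had 20.8, 15.8 and 21.3 CPM in the cold and 28.1, 31.9 and 25.2 CPM at RT (-0.56 ± 0.15, adjusted p = 0.0241). Ggps1 had 16.3, 15.8 and 15.3 CPM in the cold and 20.9, 23.9 and 22.6 CPM at RT (-0.51 ± 0.13, adjusted p = 0.0176), and Arid4b, which overlaps it on the other strand, fell as well (-0.71 ± 0.16, adjusted p = 0.00956). Insig1 had 444, 409.5 and 389 CPM in the cold, all below the 579, 730.1 and 712 CPM at RT (-0.70 ± 0.16, adjusted p = 0.00945, and 0.0512 without mutant-labelled RT library 2). Without that library or without mutant-labelled cold library 2, Mvk had adjusted p = 0.101 and 0.091, and Ggps1 0.0729 and 0.0515. Mvk was also lost without mutant-labelled RT library 1 (0.0516), and Ggps1 without mutant-labelled RT library 3 (0.0504). In the fit of the 2 mutant-labelled groups alone, 1 member was called higher and 3 lower, and without the 4 muscle-rich libraries 1 and 1.

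Among the members that rose in control BAT, Fdps had 85.7 ± 26.8 CPM in the cold and 66.6 ± 7.30 CPM at RT in mutant-labelled libraries (0.36 ± 0.22, adjusted p = 0.301). Nsdhl had 72.04 ± 20.6 CPM and 77.96 ± 12.1 CPM in the same order (-0.11 ± 0.20, adjusted p = 0.742), and Pmvk 90.8 ± 29.2 CPM and 124 ± 24.4 CPM (-0.45 ± 0.20, adjusted p = 0.159). Abcg1 had all cold libraries above all RT libraries and was not called (0.83 ± 0.31, adjusted p = 0.0937). Srebf1, Srebf2, Scap, Mbtps1 and Mbtps2 had log2 fold changes between -0.02 and 0.09.

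Whether the cold response differed between the genotypes was tested by the interaction, the cold log2 fold change in mutant-labelled libraries minus that in controls. It was below 0 and called in 3 of 27 members, Insig1, Nsdhl and Pmvk, and above 0 and called in none. Over all genes tested, 0.183% were called below 0 and 0.295% above. The members' median interaction was -0.45, against 0.02 over all genes. In either direction, 13 of the 27 members had an unadjusted p below 0.05, as did 12.2% of all genes. Insig1 fell in the cold by 0.70 in mutant-labelled libraries and rose by 1.02 in controls on the log2 scale, an interaction of -1.72 ± 0.22 (adjusted p = 0.00762). Nsdhl had -0.11 in mutant-labelled libraries and 1.69 in controls (-1.81 ± 0.28, adjusted p = 0.02). Pmvk had -0.45 in mutant-labelled libraries and 1.06 in controls (-1.51 ± 0.29, adjusted p = 0.0492, and 0.0551 with the replicate number as a block). In all 3 the control RT libraries were the lowest of the 4 groups. The 2 cold responses share no library, but the interaction uses the same 12 libraries as the comparisons above and is no separate evidence.

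A further 3 enzymes came near the threshold, with interactions of -1.60 ± 0.32 for Fdps (adjusted p = 0.0566), -1.13 ± 0.24 for Idi1 (adjusted p = 0.0723) and -1.32 ± 0.28 for Tm7sf2 (adjusted p = 0.0723). DESeq2 called these 3 as well, 6 members in all, and limma-voom called 12. The calls of Nsdhl and Pmvk were lost in 7 and 15 of 20 settings, and both genes lost theirs without any one control cold library (adjusted p 0.0566 to 0.0958 for Nsdhl and 0.11 to 0.166 for Pmvk), without mutant-labelled RT library 2 (0.0668 and 0.153), control RT library 3 (0.0641 and 0.147) or mutant-labelled cold library 1 (0.0829 and 0.164). Pmvk was lost also without mutant-labelled RT library 1 (0.0891) or 3 (0.0722) and control RT library 1 (0.0547) or 2 (0.0962). Insig1 was lost only without the 4 muscle-rich libraries, where its interaction was -1.76 (adjusted p = 0.179). The exporters had interactions above 0, 0.62 ± 0.44 for Abcg1 and 0.34 ± 0.24 for Abca1, neither called.

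**Figure D5:**
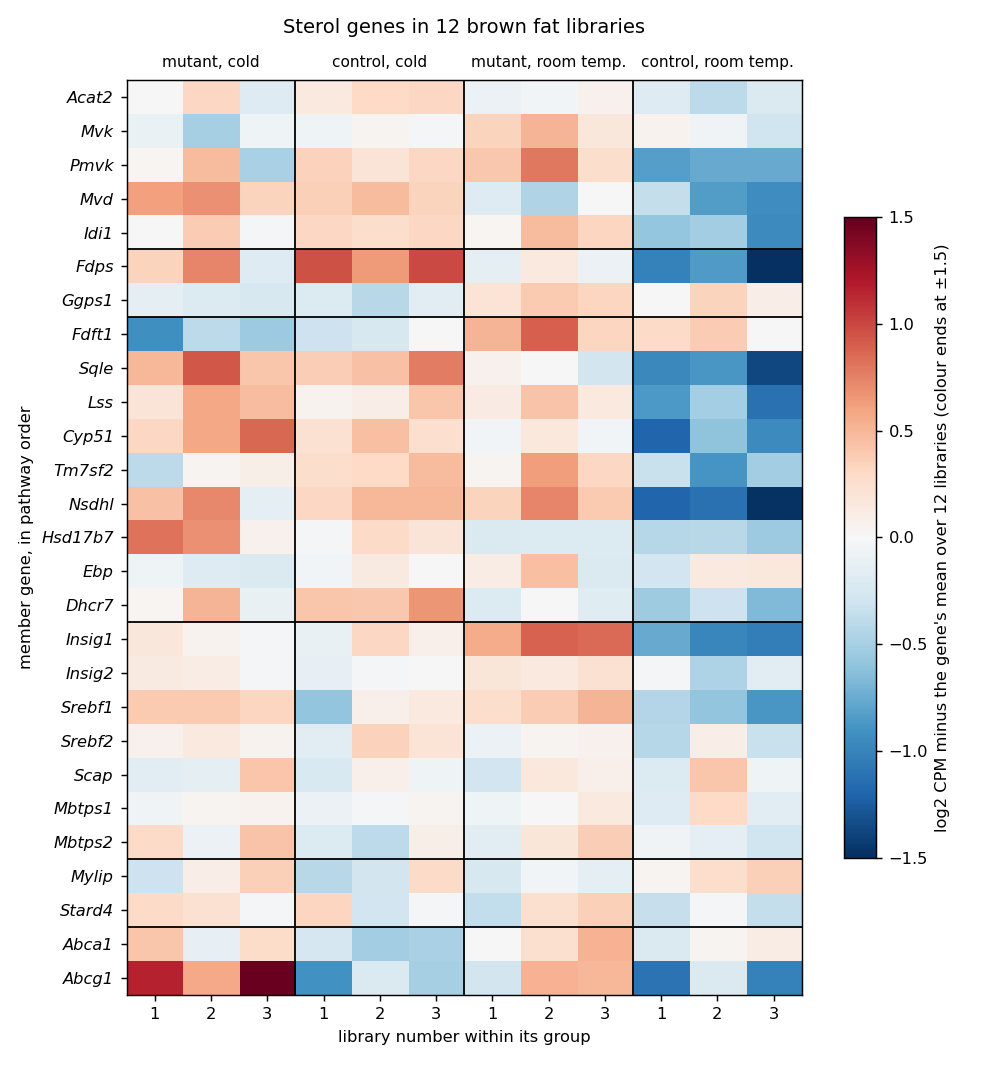
Log2 CPM of the 27 tested members in the 12 libraries minus each gene's mean (colour), in pathway order from top to bottom and with the groups mutant-labelled cold, control cold, mutant-labelled RT and control RT from left to right. The control RT libraries have the lowest mean of the groups in 12 of the 16 enzymes and in Insig1, and Fdft1 is highest in the mutant-labelled RT libraries.

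Per kilobase of exon, the scale used here to compare genes, Insig1 was the most abundant member over the mean of the groups. It had 134 ± 8.88 CPM per kb in mutant-labelled cold, 137 ± 20.5 in control cold, 218 ± 26.7 in mutant-labelled RT and 67.7 ± 7.11 in control RT libraries (SD, n = 3 each). The length is that of all annotated exons of a gene together, and the ranks depend on it. Over the mean of the groups it was followed by Acat2 (86.5 CPM per kb), Srebf1 (64.5), Pmvk (54.3), Fdft1 (23.9), Nsdhl (21.7) and Fdps (18.3). The lowest were Mbtps2 (1.25) and Stard4 (0.876). Insig2 (11.8) and Srebf2 (7.40) stood far below Insig1 and Srebf1. In control RT libraries Acat2 (71.1 ± 5.30) and Insig1 overlapped in spread.

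Hmgcs1, which makes HMG-CoA ahead of the mevalonate step, was listed at 0 in all 12 libraries. Its row is among the last 61 of the table, all of them at 0, and its RefSeq neighbours Ccl28, Nim1k, Zfp131, AF067063 and Tcstv1 were at 0 too, while Nnt and Paip1 further along had 7588 and 20503 counts. Its level could therefore not be read, and the promoter element shown for it has no expression value beside it.

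Sterol synthesis genes outside the 28 were taken from lists of other pathway members. For the counts of this list and those below, the shares over all genes tested were 3.92% higher and 2.32% lower at RT. Between genotypes in the cold they were 0.727% and 0.393%. For the cold response they were 4.31% and 2.31% in controls and 10.0% and 7.42% in mutant-labelled libraries. For the interaction they were 0.295% above 0 and 0.183% below. Of 7 further genes listed with sterol synthesis, 3 were higher in mutant-labelled libraries at RT and 3 in control cold libraries against RT, and none was lower in either. Sc5d, the lathosterol oxidase, averaged 101 ± 12.05 CPM in mutant-labelled and 33.2 ± 10.2 CPM in control RT libraries (1.60 ± 0.25, adjusted p = 0.00362), and 94.3 ± 13.99 CPM in control cold libraries (1.51 ± 0.25, adjusted p = 0.00573). Msmo1, the C4 methyl sterol oxidase that acts ahead of Nsdhl, averaged 21.2 ± 1.39 CPM in mutant-labelled and 11.2 ± 0.90 CPM in control RT libraries (0.92 ± 0.16, adjusted p = 0.0058). In mutant-labelled libraries 1 gene of the list rose in the cold and 1, Ebpl, fell (-0.83 ± 0.17, adjusted p = 0.00675). No gene of this list was called between genotypes in the cold or in the interaction.

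Of 13 genes that use isoprenoids, 1 was higher in mutant-labelled libraries at RT and none was called between genotypes in the cold. That gene was Rce1, the protease that trims prenylated proteins, with 44.5 ± 6.32 CPM in mutant-labelled and 21.7 ± 1.90 CPM in control libraries (1.04 ± 0.12, adjusted p = 0.00127). In the cold 2 rose in controls, Rce1 (0.47, adjusted p = 0.0434) and Pdss2 (0.80, adjusted p = 0.0129). In mutant-labelled libraries 3 rose and 1 fell, against 10.0% and 7.42% of all genes tested. Pdss1 and Pdss2, the pair of subunits that build the ubiquinone side chain, rose there (1.57 ± 0.25 and 0.80 ± 0.16, adjusted p = 0.00155 and 0.00478) and Rce1 fell (-0.45 ± 0.12, adjusted p = 0.0269). The interaction was called for Rce1 alone (-0.92 ± 0.17, adjusted p = 0.0492).

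Of 11 tested genes of LXR and oxysterol metabolism, 2 were higher and 1 lower at RT in mutant-labelled libraries: Lpcat3, a phospholipid acyltransferase and LXR target (0.72 ± 0.14, adjusted p = 0.0109), Pltp, the phospholipid transfer protein (0.81 ± 0.18, adjusted p = 0.0182), and Cyp27a1, the sterol 27-hydroxylase (-0.82 ± 0.19, adjusted p = 0.0228). Lpcat3 was also the 1 gene called in the cold, with 203 ± 3.78 CPM in mutant-labelled and 122 ± 12.1 CPM in control libraries (0.74 ± 0.14, adjusted p = 0.0327). Hsd3b7, of bile acid synthesis, rose in the cold in controls (0.85 ± 0.19, adjusted p = 0.023). In mutant-labelled libraries Cyp27a1 rose (0.67 ± 0.19, adjusted p = 0.0281) and Pltp fell (-0.83 ± 0.18, adjusted p = 0.00759).

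Of 23 genes of sterol uptake, storage and trafficking, 4 were higher and 1 lower at RT in mutant-labelled libraries, and 1 was higher in the cold. The last was Scarb1, the HDL receptor SR-BI, with 140.2 ± 2.40 CPM in mutant-labelled and 63.7 ± 13.1 CPM in control cold libraries (1.14 ± 0.16, adjusted p = 0.00728). Lipa, the lysosomal acid lipase that frees cholesterol from its esters, was lower in mutant-labelled RT libraries (-0.73 ± 0.18, adjusted p = 0.0297), where Lipe, the hormone-sensitive lipase, and Cav1, the caveolar coat protein, were higher (0.91 and 0.74, adjusted p = 0.00514 and 0.00613). In the cold 4 genes rose and 1 fell in controls, among them Lipa (1.19 ± 0.18, adjusted p = 0.00364), which rose, and Cav1, which fell (-0.60 ± 0.13, adjusted p = 0.0214). In mutant-labelled libraries 7 rose and 4 fell, against 10.0% and 7.42% of all genes tested. There Lipa had 307 ± 9.86 CPM in the cold and 81.5 ± 2.08 CPM at RT (1.91 ± 0.18, adjusted p = 0.000108), and Stard5 rose (1.66 ± 0.21, adjusted p = 0.000502). Lrpap1 (-1.07 ± 0.15, adjusted p = 0.000837) and the lysosomal sterol carrier Npc2 (-0.97 ± 0.16, adjusted p = 0.00163) fell.

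The list of fatty acid targets of SREBP held 18 genes. Of these, 11 were higher in mutant-labelled libraries at RT, with Slc25a1, the citrate carrier, at 1914 ± 391 CPM in mutant-labelled and 509 ± 99.5 CPM in control libraries (1.91 ± 0.24, adjusted p = 0.00137) and Elovl6, a fatty acid elongase, at 1.66 ± 0.23 (adjusted p = 0.00178). In the cold 1 was called between genotypes, the desaturase Scd2 (1.25 ± 0.26, adjusted p = 0.0492). In controls 11 rose in the cold, and the 2 with the smallest adjusted p were Aacs, the acetoacetyl-CoA synthetase (1.78 ± 0.22, adjusted p = 0.00147), and Pcyt2, of phosphatidylethanolamine synthesis (1.56 ± 0.22, adjusted p = 0.0027). In mutant-labelled libraries 3 rose and 3 fell in the cold, with Pcyt2 (1.25, adjusted p = 0.00261) and Scd2 (1.31, adjusted p = 0.00573) among the first and Slc25a1 (-1.19, adjusted p = 0.0054) and Acss2 (-0.92, adjusted p = 0.0323) among the others. The interaction was called for Slc25a1 (-2.48 ± 0.34, adjusted p = 0.0103) and Aacs (-1.76 ± 0.30, adjusted p = 0.0318), both below 0.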

How the data were processed

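The authors deposited raw counts per gene for 12 libraries of total RNA (NEB Next Ultra kit, per the labels' protocols). STAR, featureCounts and mm9 are named in the submitters' processing notes, without versions or a strand setting. Counts were filtered (filterByExpr, minimum count 10, minimum total 15) and normalised by TMM. Tests used edgeR 4.0.16 under R 4.3.3 (quasi-likelihood, robust, 1 coefficient per group, all 12 libraries, Benjamini-Hochberg over 15265 genes, adjusted p below 0.05, two-sided). The fit was run on simulated counts, drawn independently for each gene and library. That run does not show how the fit handles muscle or lens transcripts that differ between libraries. Fold changes are fitted log2 values with SE. DESeq2 1.42.0, limma-voom 3.58.1, other filters and scalings, each library left out and the 4 muscle-rich libraries of an earlier analysis left out were alternatives. Exon lengths came from GENCODE M21 (GRCm38). The members and lists were chosen with earlier results of these data known. All members are named, and from each list up to 2 genes per comparison and direction with the smallest adjusted p and a mean of at least 1 CPM. Whether libraries of a group come from separate animals is not stated, and p-values then reflect only how these libraries vary, which may be technical. Same-numbered libraries deviated together between genotypes at RT (r = 0.165, 0.719 and 0.488 across genes) and between control cold and RT libraries (0.142, 0.647 and 0.456), all above 0.1. They did not all do so between genotypes in the cold (-0.0306, 0.206 and 0.491) or in mutant-labelled libraries (0.0272, 0.151 and 0.577). No label states a pairing, and the main tests used none. Summed muscle markers at RT were 30.56 and 20.02 CPM in mutant-labelled and control libraries 2 and 20500 and 18090 CPM in libraries 3. In libraries 1 they were 1187 and 26030 CPM. The part of muscle transcripts in these correlations was not tested. Some genes of the lists are counted but not reported by name here.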

Additional observations from a re-analysis of the deposited data

Results flagged for a closer look

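For 6 genes the cold response differed between the genotypes by the interaction test. Among the sterol genes, the cold response in mutant-labelled libraries minus that in controls was -1.72 for Insig1, -1.81 for Nsdhl and -1.51 for Pmvk on the log2 scale. Among the listed genes outside the 28, it was -2.48 for Slc25a1, -1.76 for Aacs and -0.92 for Rce1. In each the response was the lower in mutant-labelled libraries. The calls of Nsdhl and Pmvk were lost in 7 and 15 of 20 alternative settings. Slc25a1, Aacs and Rce1 were not followed through these settings.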

How the results depend on the processing

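Over 21 alternative settings no called value of a member changed sign. At RT 10 members were higher in mutant-labelled libraries, 7 to 12 with 1 library left out, 16 with limma-voom (median 0.54, against 0.39) and 0 without the 4 muscle-rich libraries. Between genotypes in the cold the 1 call became 0 to 1 with 1 library left out, 2 with DESeq2, 3 higher and 1 lower with limma-voom, and 0 in the fit of the cold groups alone and without the muscle-rich libraries. Of the members, 12 rose in control cold libraries, 9 to 13 with 1 library left out. None of them was called without the muscle-rich libraries (0, median 0.40), and 1 member was called lower with DESeq2 and 2 with limma-voom. In mutant-labelled libraries 4 rose and 4 fell in the cold, 0 to 4 and 1 to 4 with 1 library left out, 1 higher in the fit of those groups alone, and 1 and 1 without the muscle-rich libraries. The interaction was called below 0 in 3 members, 1 to 4 with 1 library left out, 6 with DESeq2, 12 with limma-voom and 0 without the muscle-rich libraries. Medians with 1 library left out were 0.35 to 0.49 at RT, 0.02 to 0.11 between genotypes in the cold, 0.41 to 0.57 for cold in controls, -0.064 to 0.0975 for cold in mutant-labelled libraries and -0.51 to -0.34 for the interaction. The replicate block ended the calls of Acat2 for cold in controls and of Pmvk in the interaction and changed no other call of a member. The causes were not tested, but the fit without muscle-rich libraries leaves 1 control RT library, which is assumed to vary like the others.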

Other observations

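The balance between neighbouring steps was described by ratios of CPM per kb, chosen after their values were seen and given with no test. Fdps per Fdft1, the make and the sterol use of farnesyl diphosphate, was 1.69, 1.56 and 0.909 in mutant-labelled and 1.71, 1.31 and 1.42 in control libraries in the cold, and 0.454, 0.423 and 0.534 in mutant-labelled and 0.291, 0.304 and 0.253 in control libraries at RT. Every cold library was above every RT library. Fdft1 overlaps Ctsb on the other strand, and Ctsb had group means of 1527 to 2712 CPM. As the strand setting is not stated, the part of Ctsb reads in this ratio was not tested. Insig1 per Insig2 was 11.1, 10.5 and 10.9 in mutant-labelled and 10.9, 13.8 and 11.5 in control libraries in the cold, and 14.1, 18.2 and 16.8 in mutant-labelled and 6.56, 7.63 and 5.97 in control libraries at RT. The mutant-labelled RT libraries were the highest and the control RT libraries the lowest. Srebf1 per Srebf2 averaged 10.2 ± 0.309 in mutant-labelled and 7.10 ± 0.944 in control libraries in the cold, and 10.9 ± 0.375 in mutant-labelled and 6.41 ± 1.62 in control libraries at RT (SD, n = 3 each).

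Mutant-labelled cold library 3 was the lowest of its 3 libraries in 16 members, the highest in 8 and the middle one in 3. For Pmvk, Fdps and Nsdhl it held 0.595, 0.599 and 0.604 of the mean of the other two, and for Abcg1 1.51. Its Ucp1 was 5870 CPM, against 11000 and 11700 CPM in the other two.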
